A study of Mus musculus with 3 samples.

Results

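The nuclei described here were the E12.5 forelimb mesenchymal progenitor (MP) nuclei with the largest share of their counts at 8 cartilage loci. They were chosen by a score from the measured values, so the loci of the score describe the choice and support nothing. Each of the 8294 nuclei of the E12.5 library with 5000 or more counts (4638 nuclei, 55.9%) was scored by the counts in open chromatin regions (OCRs, the peaks called by the authors) that overlapped the body or the 2000 bp upstream of *Acan*, *Col2a1*, *Col9a1*, *Col9a3*, *Matn1*, *Chad*, *Cnmd* or *Snorc*, divided by all counts of that nucleus. The highest 10%, 464 nuclei, are called gated nuclei, and the remaining 4174 nuclei that passed the depth minimum are called other nuclei. The series holds 42365 nuclei in all. These are all deposited barcodes, more than the study counts, and its filter could not be matched.

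Chromatin accessibility had been measured by single-cell ATAC-seq, in which a transposase cuts open DNA, in tdTomato+ MPs sorted from forelimbs of Hic1CreERT2/CreERT2;Rosa26LSLtdTomato/tdTomato embryos of strain C57BL/6J. All embryos carried these alleles, so Cre was driven from *Hic1* itself, and all dams had been given 7.5 mg tamoxifen by gavage on embryonic day 10. Erythroid, myeloid, endothelial and other blood cells had been removed in the sort by Ter119, F4/80, CD11b, CD31, CD117 and CD45, and pairs of forelimbs were pooled. Each stage (E12.5, then E14.5, then E16.5) was 1 library. The E12.5 forelimbs were released with Dispase and the later ones with Collagenase A, Pronase and DNase, and the E16.5 tissue was the segment around the elbow joint. Stage, library, digestion and, at E16.5, tissue therefore cannot be told apart. With 1 library per stage and with nuclei that are not replicates, no test was possible. Each ratio below carries a 95% interval that covers counting error only, with each sequenced fragment counted once.

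Cartilage forms when mesenchymal cells condense and switch on SOX9, which acts with SOX5 and SOX6 at enhancers of matrix genes. The matrix that follows is built of type II, IX and XI collagens and of aggrecan, whose chondroitin chains must be sulphated. In the limb this core is the template of the bones, while the Hic1+ MPs around it give rise to tendon, dermal and other connective tissue as well as to some chondrogenic cells. The study reports chondroprogenitors already at E12.5, seen both in transcripts and in chromatin. Whether a bias towards cartilage could be read in the chromatin of nuclei chosen by this gate, at loci that the choice had not used, was the question of the comparison.

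The sequences below are the central 300 bases of 5 OCRs that were higher in gated nuclei. They are not the 5 highest, and were picked after their values had been seen, at genes on which the later paragraphs turn. They lie on the plus strand of GRCm38 (mm10) at chr8:107522430-107522729 in an intron of *Wwp2*, chr10:83130690-83130989 in an intron of *Chst11*, chr6:144056649-144056948 in an intron of *Sox5*, chr4:121040878-121041177 in the promoter OCR of *Col9a2*, and chr9:56881711-56882010 in an intron of *Cspg4*. Capitals mark the SOX core motifs CATTGT and CTTTGT on either strand.
Wwp2 region: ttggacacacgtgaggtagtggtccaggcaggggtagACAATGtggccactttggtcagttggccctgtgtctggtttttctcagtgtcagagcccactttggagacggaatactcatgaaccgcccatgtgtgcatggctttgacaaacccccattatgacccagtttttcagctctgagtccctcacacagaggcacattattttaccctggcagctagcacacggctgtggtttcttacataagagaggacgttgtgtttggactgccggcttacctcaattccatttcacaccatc
Chst11 region: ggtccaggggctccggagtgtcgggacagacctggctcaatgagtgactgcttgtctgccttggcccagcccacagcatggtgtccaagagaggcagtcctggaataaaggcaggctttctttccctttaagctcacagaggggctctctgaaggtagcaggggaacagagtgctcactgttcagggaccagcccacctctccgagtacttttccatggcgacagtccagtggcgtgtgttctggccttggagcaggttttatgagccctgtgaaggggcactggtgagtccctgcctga
Sox5 region: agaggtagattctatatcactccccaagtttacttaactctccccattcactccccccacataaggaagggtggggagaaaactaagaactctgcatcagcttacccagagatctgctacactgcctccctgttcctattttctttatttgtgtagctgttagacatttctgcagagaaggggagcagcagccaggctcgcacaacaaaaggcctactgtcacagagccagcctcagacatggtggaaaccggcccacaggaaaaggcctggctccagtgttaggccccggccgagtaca
Col9a2 region: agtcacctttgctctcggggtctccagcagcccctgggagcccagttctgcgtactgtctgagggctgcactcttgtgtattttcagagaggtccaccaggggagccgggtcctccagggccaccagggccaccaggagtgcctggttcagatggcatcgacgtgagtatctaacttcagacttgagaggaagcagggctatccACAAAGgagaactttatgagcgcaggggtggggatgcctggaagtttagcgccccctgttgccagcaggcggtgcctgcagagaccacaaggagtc
Cspg4 region: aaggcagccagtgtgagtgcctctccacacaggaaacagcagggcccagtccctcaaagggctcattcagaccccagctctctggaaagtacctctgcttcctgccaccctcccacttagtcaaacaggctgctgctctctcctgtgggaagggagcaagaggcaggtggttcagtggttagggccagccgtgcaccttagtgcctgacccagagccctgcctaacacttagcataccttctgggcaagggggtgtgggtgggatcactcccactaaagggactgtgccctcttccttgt

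The *Wwp2* window held 1 CATTGT match and the *Col9a2* window held 1 CTTTGT match, and both also held 1 match to the RUNX core TGTGGT. The windows of *Chst11*, *Sox5* and *Cspg4* held no match to these letters, which says nothing of any factor's binding. Among the same central 300 bases of all 21057 OCRs tested, 8.82% held CATTGT, 16.7% held CTTTGT and 14.6% held TGTGGT. The *Wwp2* and *Chst11* OCRs shown held too few fragments to be in that set. Among OCRs outside promoters the shares were 12.9%, 22.0% and 19.9% of 8600. In the 210 such OCRs at 1.5-fold or more in gated nuclei they were 12.9%, 30.5% and 21.9%, with the same median GC content of 48.7%. They were 12.6%, 24.1% and 20.4% in the 1217 OCRs at least 25% higher, 12.5%, 21.0% and 20.02% in the 6088 OCRs between these limits, and 14.98%, 24.5% and 18.7% in the 1295 OCRs at 0.8-fold or less. CTTTGT was thus also more frequent in the lower OCRs than in those between, and CATTGT was most frequent in the lower ones.

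Values at the gate were sparse. The gate comprised 39 OCRs that spanned 36.0 kb and took 0.0250% of the counts of all nuclei that passed depth. A gated nucleus held from 2 to 19 fragments there with a median of 4, and 110 gated nuclei held 2, 118 held 3 and 78 held 4. Other nuclei held a median of 1 and at most 21, and 29.7% of them held none. The last gated nucleus scored 591.06 counts per 1000000 counts (CPM) and the first nucleus outside scored 590.55, with 123 gated nuclei within 10% above the limit and 103 other nuclei within 10% below it. Counts at 1 locus only were seen in 82 gated nuclei, at 2 loci in 208, at 3 loci in 122 and at 4 or more in 52. Gated nuclei were shallower than other nuclei, with a median of 8606 counts (5001 to 52186) against 11818 (5003 to 139261), and the promoter share of counts was 41.3% against 42.4%. Results were therefore also computed with other nuclei weighted to the depth and promoter share of gated nuclei. Of the gated barcodes 20 (4.31%) also occurred in the E14.5 or E16.5 library, against 4.60% of the other barcodes.

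As the rule required, all 8 loci held more counts in gated nuclei, and these values are a description. *Col2a1* (chr15:97975602-98004695), the chain of the main cartilage collagen, was at 289 CPM in gated and 80.5 CPM in other nuclei and supplied 35.8% of the gate counts. *Col9a1* (chr1:24177610-24252684), a chain of the type IX collagen on its fibrils, was at 242 and 59.4 CPM and supplied 29.9%. *Col9a3*, another chain of it, was at 84.6 against 16.9 CPM, *Acan*, the aggrecan core protein, at 64.9 against 22.9 CPM, and *Cnmd*, the anti-angiogenic chondromodulin, at 62.8 against 15.6 CPM. The matrilin gene *Matn1* was at 33.2 against 9.43 CPM. *Snorc* and *Chad*, a chondrocyte proteoglycan and the cell adhesion protein chondroadherin, were the lowest, at 16.7 against 6.30 CPM and 15.2 against 6.62 CPM.

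To read each gate locus without circularity, nuclei were gated 8 times on the remaining 7 loci and the locus left out was read. Summed over the 8, the left-out locus was 1.19-fold as accessible in gated as in other nuclei (interval 1.095 to 1.27). In nuclei with 10000 or more counts this ratio was 1.08 (0.995 to 1.17), with an interval that included 1. *Col9a3* (1.43, 1.08 to 1.77) and *Cnmd* (1.37, 1.05 to 1.78) had intervals above 1, as did *Col9a1* (1.17, 1.003 to 1.32). *Matn1* (1.45, 0.988 to 1.98) and *Col2a1* (1.12, 0.983 to 1.26) lay above 1 with intervals that reached it. The values of *Acan* (0.907, 0.675 to 1.16), *Chad* (0.848, 0.492 to 1.44) and *Snorc* (0.851, 0.448 to 1.36) lay below 1, on only 59, 16 and 15 fragments in gated nuclei. The same loci were thus 2.30-fold to 5.01-fold higher under their own gate, and between 0.848-fold and 1.45-fold when the gate did not contain them.

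**Figure D1:**
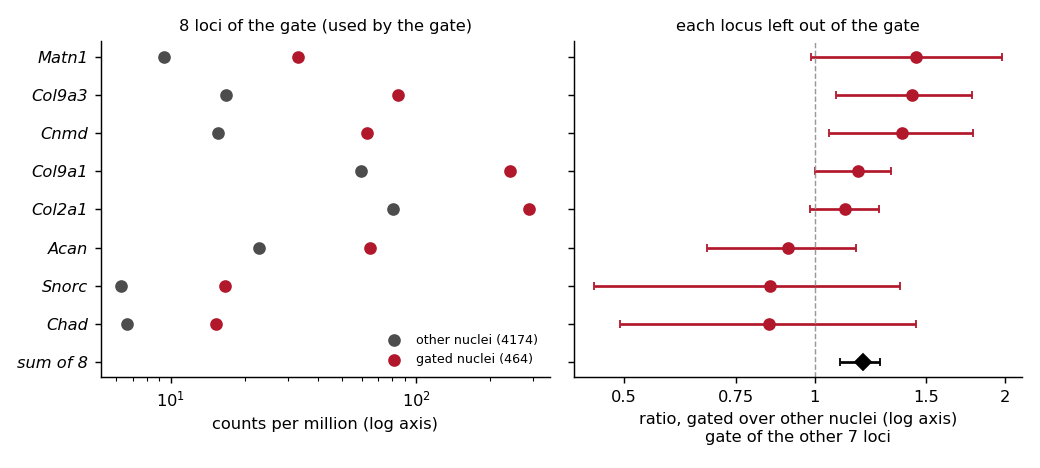
CPM of the 8 gate loci in the 464 gated and 4174 other nuclei (left, log axis), and the ratio at each locus when nuclei were gated on the other 7 (right, log axis), with 95% counting intervals. The sum over the left-out loci is 1.19, with *Col9a3*, *Matn1* and *Cnmd* highest.

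Outside the gate, 32 cartilage genes were read, none within 100 kb of a gate gene. Their summed accessibility was 3274 CPM in gated and 3012 CPM in other nuclei, a ratio of 1.09 (1.06 to 1.11). Of the 26 with enough counts (50 or more fragments expected in gated nuclei), 4 were at least 25% higher (15.4%), namely *Wwp2*, *Col9a2*, *Slc26a2* and *Papss2*, against 3.67% of all 12373 autosomal protein-coding genes tested. In nuclei with 10000 or more counts *Slc26a2* (1.1878) and *Papss2* (1.2035) were less than 25% higher. The same held with each nucleus thinned to 2500 fragments before it was scored (1.1256 and 1.1783). With the highest 5% of nuclei both stayed at least 25% higher (1.2654 and 1.2566), and other alternatives went both ways. Of the 26, *Fgfr3* and *Epyc* were at 0.8-fold or less, against 6.95% of all genes. The median log2 ratio was 0.10 over these 26 genes and -0.01 over all genes, and 17 of the 26 lay above 1 against 46.9% of all genes. The interval lay above 1 for 9 of the 26 and below 1 for 2, against 7.44% and 7.61% of all genes. Without *Wwp2* and *Col9a2*, left out after their values had been seen, the summed ratio was 1.06. The sum did not rise steadily with the gate score. It was 2921 CPM (2671 to 3188) in the highest 1% of nuclei. From 1 to 5% it was 3377 CPM and from 5 to 10% 3250 CPM. Just outside the gate, from 10 to 20%, it was 3236 CPM, and nuclei with no gate count were at 2913 CPM. The 110 gated nuclei with 2 gate fragments were at 2872 CPM.

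The regulators had the lowest summed ratio of the cartilage lists, but its interval overlapped those of the others. Matrix genes were at 1.1017 (1.0428 to 1.159) in sum, and signalling genes and enzymes at 1.1242 (1.0767 to 1.1707). These sums include *Col9a2* and *Wwp2*, and the lists were not summed separately without them. Over all cartilage genes outside the gate the sum without both was 1.06 (1.0337 to 1.0833), so the regulators are not set apart. The summed ratio of 9 regulators was 1.06 (1.03 to 1.09), 7 lay above 1, and none was 25% or more higher or at 0.8-fold or less. *Sox6* (372 against 338 CPM, 1.1025, 1.02 to 1.17) and *Sox5* (481 against 445 CPM, 1.08, 1.02 to 1.152), the partners of SOX9, had intervals above 1. These intervals reached 1 for *Sox5* with the thinned score (1.04, 0.994 to 1.098), with each OCR counted as open or closed (1.06, 0.992 to 1.127) and at promoters (0.817, 0.628 to 1.102). They did so for *Sox6* with the highest 5% of nuclei (1.04, 0.924 to 1.135), with a score on open OCRs (1.07, 0.991 to 1.139) and at promoters (1.02, 0.872 to 1.184). *Sox9* itself (chr11:112782224-112787760), the master regulator of chondrogenesis, was at 62.6 CPM in gated and 68.2 CPM in other nuclei (0.918, 0.774 to 1.08). *Nkx3-2*, a repressor that promotes early chondrogenesis, had a ratio of 0.922 (0.691 to 1.203). Ratios of *Runx2* (1.03) and *Runx3* (1.02), which drive chondrocyte maturation, *Trps1* (1.07), *Mef2c* (1.07) and *Foxa3* (1.13) had intervals that included 1. *Sox9* lay above 1, with intervals that included it, with each OCR counted as open or closed (1.14, 0.931 to 1.39) and under a gate without *Col2a1* and *Col9a1* (1.14, 0.977 to 1.32). These nuclei are named by the gate and not as chondrocytes, since no interval of *Sox9* at E12.5 lay above 1 in the alternatives run and 3 of the 8 left-out loci lay below 1. Both readings are limited. *Sox9* was read through 1 promoter OCR only, without OCRs more than 2000 bp upstream of the gene. The intervals of the 3 left-out loci included 1.

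Among 13 matrix genes, 9 could be read and 1 was 25% or more higher, against 3.67% of all genes, so that the count rests on 1 gene. *Col9a2* (chr4:121039385-121055322), which encodes another chain of type IX collagen, was at 58.5 CPM in gated and 37.5 CPM in other nuclei (1.56, 1.32 to 1.87, 144 fragments). The matrilin gene *Matn4* (62.8 against 52.3 CPM, 1.201, 1.02 to 1.42) and the fibrillar collagen gene *Col27a1* (167 against 150 CPM, 1.12, 1.01 to 1.24) also had intervals above 1. *Mia* (1.151), *Matn3* (1.12), the collagen gene *Col11a1* (0.995), the link protein gene *Hapln1* (0.925) and *Comp* (0.843) had intervals that included 1. *Epyc*, which encodes a small leucine-rich proteoglycan, was at 15.2 CPM in gated and 22.4 CPM in other nuclei (0.681, 0.476 to 0.937). *Scrg1* (1.58, 0.981 to 2.19), *Col11a2* (1.16) and *Ucma* (1.14) held too few fragments to be counted among the 26, and no OCR was called at *Col10a1*, the collagen gene of hypertrophic chondrocytes.

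Of the signalling genes and enzymes 3 of 8 were at least 25% higher, against 3.67% of all genes. *Wwp2* (chr8:107436365-107558595), a ubiquitin ligase gene that hosts the cartilage microRNA miR-140, was at 180 CPM in gated and 110 CPM in other nuclei (1.63, 1.47 to 1.79, 444 fragments). It had the highest ratio of the 2121 genes with 200 or more expected fragments. By gate score, *Wwp2* did not rise steadily. It was at 146 CPM (94.5 to 216, 25 fragments) in the highest 1% of nuclei and at 231 CPM (201 to 264) from 1 to 5%. *Wwp2* was at 150 CPM in the 5 to 10% class and at 154 CPM from 10 to 20%, just outside the gate. Also above 1 were *Slc26a2*, the sulphate transporter gene (43.5 against 32.8 CPM, 1.32, 1.07 to 1.61), *Papss2*, which makes the sulphate donor (53.1 against 41.97 CPM, 1.27, 1.05 to 1.51), and *Chst11*, a chondroitin sulphotransferase gene (211 against 177 CPM, 1.19, 1.09 to 1.30). *Slc26a2* was at 1.04 (0.816 to 1.29) under a gate without *Col2a1* and *Col9a1* and at 1.13 (0.940 to 1.35) with the score taken on thinned nuclei, and in the thinned comparison of stages *Papss2* was at 1.09 (0.803 to 1.45). The interval of *Papss2* also reached 1 with the highest 5% of nuclei (1.26, 0.973 to 1.66) and with a score on open OCRs (1.16, 0.966 to 1.42). Of the 3 genes at least 25% higher, only *Wwp2* stayed so (1.33) with the score taken on thinned nuclei. *Xylt1*, which starts the chondroitin chain, was at 1.06 (0.931 to 1.18). *Fgfr3*, a brake on chondrocyte proliferation, was at 0.791 (0.619 to 0.995), the BMP receptor gene *Bmpr1b* at 0.918 (0.837 to 1.01) and the parathyroid hormone receptor gene *Pth1r* at 0.995 (0.868 to 1.135). *Ihh*, the hedgehog ligand of growth plates (1.08, 0.7999 to 1.43), and *Susd5* (0.869) were below the count minimum.

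**Figure D2:**
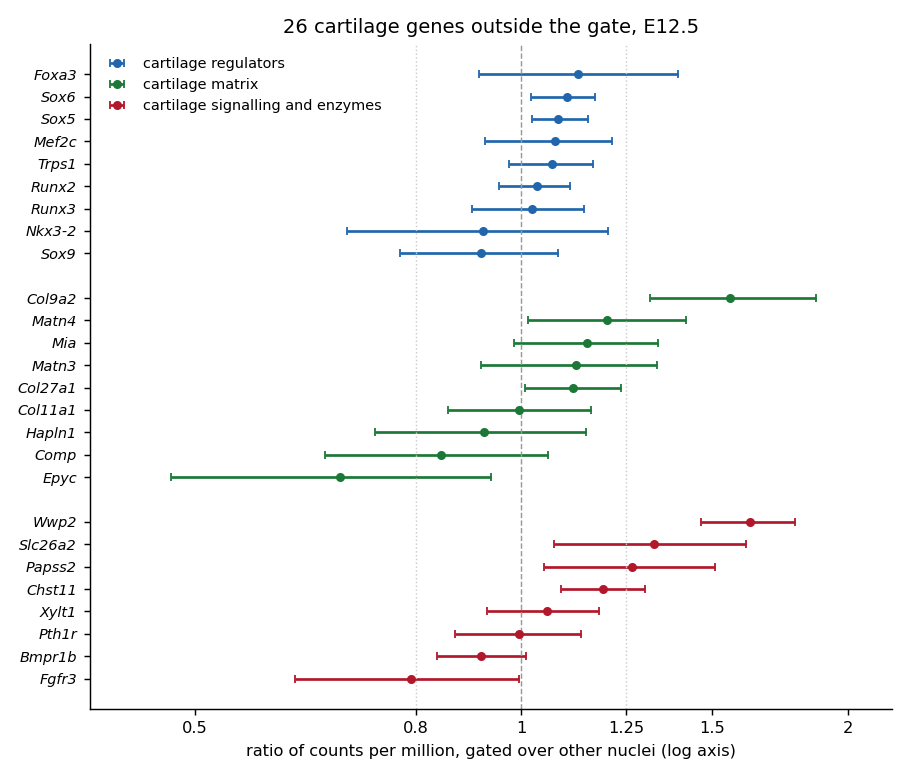
Ratio of CPM in gated over other nuclei (log axis) for the 26 cartilage genes outside the gate that held enough counts, with 95% counting intervals. *Wwp2* (1.63) and *Col9a2* (1.56) stand to the right of all others, and *Sox9* (0.918) lies left of 1.

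Single OCRs were also read within these genes. At *Wwp2* only 6 of the 21 OCRs had 15 or more expected fragments and were read singly. The remaining OCRs also count towards the gene, so its difference is not placed in the named OCRs alone. At the *Wwp2* promoter gated nuclei were at 15.4 CPM and other nuclei at 13.96 CPM (1.11, 0.779 to 1.55). Inside the gene, the OCR at chr8:107522085-107523074, whose sequence is given above, was at 18.7 against 6.19 CPM (3.03, 2.16 to 4.18, 46 fragments). Those at chr8:107467824-107470032 (1.86), chr8:107471999-107473617 (1.90) and chr8:107544145-107545839 (1.97, at an internal start site) were also higher with intervals above 1, and the last ended 5.41 kb upstream of *Mir140*. An intronic OCR between them was at 0.740 (0.495 to 1.099). The 4 higher OCRs of *Wwp2* were 8.26-fold to 19.0-fold higher in nuclei of the same gate at E16.5, whereas its promoter was at 1.17 and the intronic OCR at 0.985. These single OCRs, and that of *Chst11*, were picked out after their values had been seen. The OCRs at chr8:107522085-107523074 and chr8:107467824-107470032 had 17.1 and 17.8 expected fragments, below the minimum of 30 for the OCRs tested. That of *Chst11* was also below it.

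**Figure D3:**
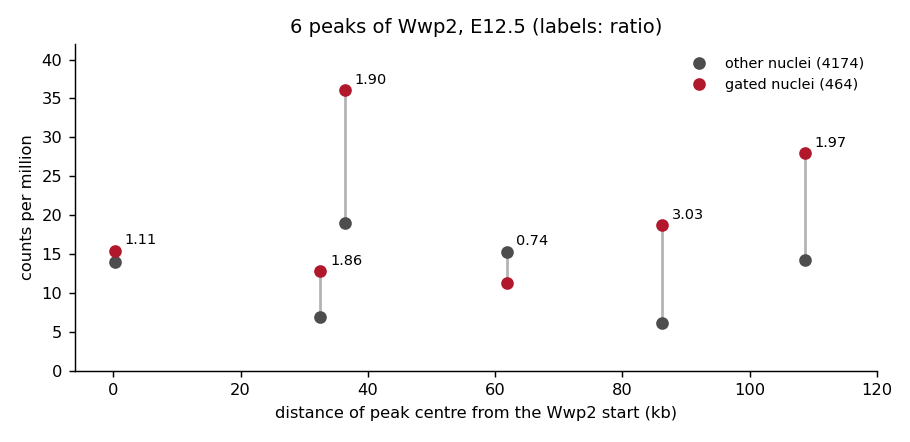
CPM at the 6 OCRs of *Wwp2* with 15 or more expected fragments, against distance from the gene start in kb, in 464 gated and 4174 other nuclei, labelled with the ratio. The promoter OCR differs by 1.11-fold and 4 OCRs inside the gene by 1.86-fold to 3.03-fold.

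At other cartilage genes single OCRs also differed from the gene as a whole. An OCR in an intron of *Chst11* (chr10:83130292-83131386) was at 17.7 against 7.04 CPM (2.52, 1.80 to 3.51), while the *Chst11* promoter was at 1.05 (0.839 to 1.29). In *Sox5* the OCR at chr6:144056024-144057573 was at 26.4 against 12.6 CPM (2.09, 1.56 to 2.69), a further intronic OCR was at 1.44 (1.16 to 1.75), and 1 at chr6:144074413-144075889 was lower (0.716, 0.527 to 0.967). An OCR over an exon of *Sox6* was at 1.63 (1.201 to 2.13). At promoter OCRs alone *Papss2* was at 0.805 (0.523 to 1.18), *Sox5* at 0.817 (0.628 to 1.102) and *Cspg4* at 0.695 (0.445 to 1.04), all with intervals that included 1, and *Slc26a2* was at 1.26 (0.999 to 1.56). At *Col9a2* the difference lay in a broad OCR (52.7 against 32.5 CPM, 1.62, 1.35 to 1.96). This OCR, chr4:121039172-121042883, overlapped the promoter but ran into the gene body, so the difference cannot be placed at the promoter itself. Of the 67 OCRs at held-out cartilage genes with 30 or more expected fragments, 15 (22.4%) were at least 25% higher, against 9.12% of all 21057 OCRs tested. By annotation that share was 5.65% of promoter, 13.8% of exon, 15.2% of intron and 13.4% of intergenic OCRs.

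Among OCRs more than 100 kb from a gate gene with 30 or more expected fragments, the highest ratio was in an intron of *Cspg4* at chr9:56880429-56883292 (37.7 against 15.1 CPM, 2.49, 1.98 to 3.12). *Cspg4* encodes the NG2 proteoglycan, which chondrocytes and pericytes both make. It was followed by an intronic OCR of *Farp1* at chr14:121198383-121200744 (2.36, 1.84 to 2.96), an intronic OCR of *Gng2* at chr14:19919665-19921187 (2.36, 1.81 to 2.97) and intergenic OCRs nearest to *Rpl14* (2.14, 1.69 to 2.68) and *Ly86* (2.13, 1.61 to 2.72). The *Sox5* OCR was the sixth.

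These ratios could be set beside those of other nuclei, since the E14.5 and E16.5 libraries were gated by the same rule. Of the 10 highest OCRs at E12.5, 9 overlapped an OCR with a value at E16.5, and all 9 were at 1.5-fold or more there, with a median of 6.44. Of the 259 OCRs at 1.5-fold or more at E12.5 (1.23% of those tested), 229 had a value at E16.5 and 107 of these (46.7%) were at 1.5-fold or more in it, against 6.67% of all 20378 tested OCRs with a value. In the E14.5 library the shares were 35.0% of 237 and 2.53% of 20123. The 2772 OCRs at 0.8-fold or less at E12.5 reached 1.5-fold or more at E16.5 in 3.503% of 2655. Outside promoters the shares at E16.5 were 53.0% of 181 for the higher OCRs, 11.2% of all 7957 and 4.48% of 1183 for the lower ones.

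Read the other way, the 500 OCRs with the highest ratios in gated nuclei at E16.5, called E16.5 cartilage regions, overlapped 527 OCRs of the E12.5 list more than 100 kb from a gate gene. Their summed accessibility was 3485 CPM in gated and 2131 CPM in other nuclei at E12.5, a ratio of 1.64 (1.59 to 1.67), and 79.3% of them lay above 1 against 45.3% of all 184856 OCRs with a count outside the gate. The ratio was 1.61 at the 491 OCRs more than 100 kb from a held-out cartilage gene, 1.67 without promoters, and 1.59 with other nuclei weighted to the depth and promoter share of gated nuclei. With each nucleus thinned to 2500 fragments before it was scored it was 1.31. The 500 OCRs at the opposite end of the E16.5 ranking had a ratio of 0.837 (0.803 to 0.871).

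OCRs ranked by E16.5 gates of other lineages had lower ratios at E12.5. Those of a tenogenic gate were at 0.989 (0.968 to 1.01), those of a fibrogenic gate at 0.948 (0.911 to 0.986) and those of a dermal fibrogenic gate at 0.909 (0.880 to 0.946), and from 37.8% to 43.1% of them lay above 1. The OCRs lowest under the fibrogenic gate were at 1.30 (1.26 to 1.33) in the E12.5 gated nuclei. They shared 164 OCRs with the E16.5 cartilage regions, and were at 1.11 (1.07 to 1.14) without these. The sets of the gates were not of like strength at E16.5 itself. The median log2 ratio of the highest-ranked OCRs there was 3.17 under the cartilage gate and 2.08 under the dermal fibrogenic gate. It was 1.77 under the tenogenic and 1.24 under the fibrogenic gate. The part of this in the lower ratios at E12.5 was not tested.

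Gated nuclei were not uniform. Per nucleus, the E16.5 cartilage regions ranged from 311 to 16212 CPM with a median of 2267 CPM in gated nuclei, and from 0 to 16622 CPM with a median of 1734 CPM in other nuclei. The middle of both groups overlapped widely, and gated nuclei differed mainly in the upper tail. Of the gated nuclei 119 (25.6%) lay above the 90th percentile of other nuclei, 3940 CPM, and 296 (63.8%) lay above their median. The summed level of these regions was 2719 CPM in gated nuclei with counts at 1 gate locus and 2756 CPM with counts at 2 loci, 3287 CPM at 3 and 5950 CPM (5724 to 6183) at 4 or more. Gated nuclei with a count at *Cnmd* (4718 CPM, 107 nuclei) or *Col9a3* (4710 CPM, 124 nuclei) were higher than those without (3064 and 2879 CPM). Those with a count at *Col2a1* (3423 CPM, 317 nuclei) were lower than those without (3662 CPM), and those with a count at *Snorc* were lower (2672 against 3541 CPM). Nuclei with counts at more loci were also deeper, with a median of 14031 counts at 4 or more loci against 6458.5 at 1, and the part of depth in this gradient was not tested. All these splits use the loci that chose the nuclei, so they are shaped by the gate and do not rank its loci.

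Clusters made without the gate loci, the held-out cartilage genes and 100 kb around each showed where gated nuclei lay. Of 6 clusters, the fifth in size held 702 nuclei (15.1%) and 121 gated nuclei, 17.2% (14.5% to 20.2%) of its nuclei, while the other 5 held from 5.95% to 10.3%. It thus took 26.1% of gated and 13.9% of other nuclei. With 4 clusters in place of 6 the cluster richest in gated nuclei held 11.1% (9.41% to 12.9%), an interval that includes the 10% set by the gate. Among the genes with 200 or more expected fragments the leading gene of the fifth of the 6 clusters was *Wwp2* (288 against 77.6 CPM in the remaining nuclei, 3.72-fold), although the OCRs of *Wwp2* had not entered the clustering. Next came *Hao1* (2.50-fold), *Chic2* (2.34-fold), *Slpi* (2.15-fold), *Tll1* (1.95-fold), *Unc80* (1.91-fold) and *Bmp5* (1.91-fold), a BMP ligand gene active in skeletal condensations. The cluster had a ratio of 1.33 (1.31 to 1.35) over the held-out cartilage genes. Over the E16.5 cartilage regions, 361 of whose 527 OCRs had entered the clustering, the ratio was 2.65. The ratio at the gate loci, 1.42 (1.36 to 1.49), describes the choice, since the cluster was singled out by its share of gated nuclei. The cluster was left unnamed, because only *Wwp2* of the cartilage list was among its 10 leading genes. Whether it matches the chondroprogenitors that the study reports at E12.5 was not tested.

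Most gated nuclei, 343 (73.9%), lay outside that cluster. Their median for the E16.5 cartilage regions was 1793 CPM, against 1734 CPM in all other nuclei, which include those inside the cluster. Of the 343, 7.58% lay above the 90th percentile of all other nuclei, against 76.9% of the 121 gated nuclei inside the cluster. With the cluster left out of both groups, the summed levels were 2118.5 CPM in gated and 1693 CPM in other nuclei. Outside the cluster the summed ratio of gated over other nuclei was 1.251 (1.21 to 1.29) over the E16.5 cartilage regions, 1.34 (1.14 to 1.57) at *Wwp2* and 1.02 (0.990 to 1.05) over the held-out genes. Inside it the ratios were 1.45 (1.41 to 1.49), 1.199 (1.05 to 1.36) and 1.06 (1.02 to 1.097). The 581 other nuclei inside the cluster were nevertheless higher than the 464 gated nuclei as a whole. They were at 4324 against 3485 CPM over the E16.5 cartilage regions and at 3775 against 3274 CPM over the held-out genes. At *Wwp2* they were at 282 against 180 CPM. The gated nuclei are therefore not the nuclei highest at these loci, and the comparison group holds many that are high. Among the clusters outside the fifth, the ratio over the E16.5 cartilage regions differed. It was 1.49 (1.39 to 1.58) in cluster 6 (54 gated nuclei), 1.23 (1.14 to 1.31) in cluster 3 (78) and 1.096 (1.03 to 1.17) in cluster 1 (107). In cluster 2 (60 gated nuclei) it was 1.05 (0.954 to 1.16) and in cluster 4 (44) 1.01 (0.897 to 1.12), with intervals that included 1. The *Wwp2* ratio went both ways. It was 1.63 (1.17 to 2.18) in cluster 1, 1.60 (1.18 to 2.12) in cluster 6 and 1.53 (0.986 to 2.38) in cluster 4. In clusters 2 and 3 it was 0.884 (0.476 to 1.44) and 0.815 (0.551 to 1.18).

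**Figure D4:**
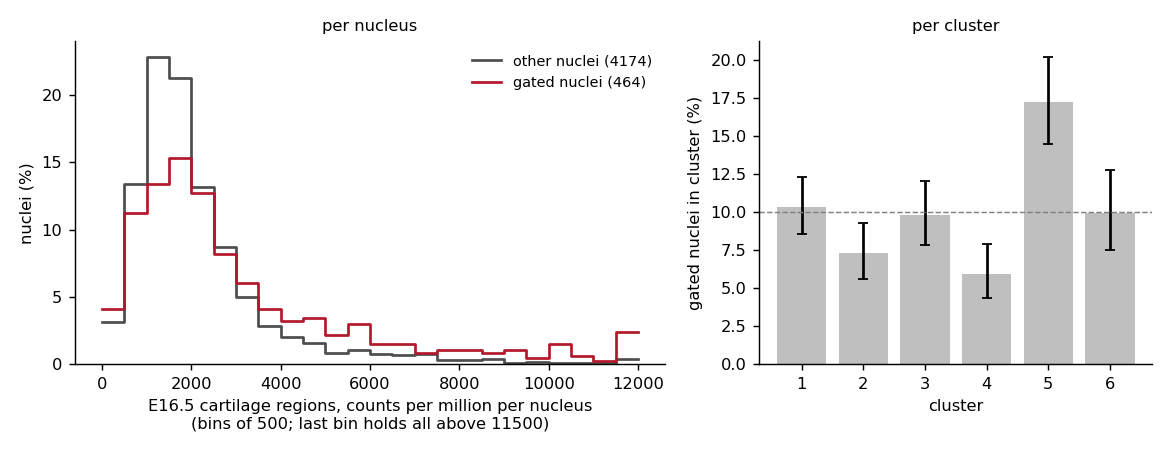
Left, share of nuclei (%) by CPM at the E16.5 cartilage regions per nucleus in bins of 500 CPM for 464 gated and 4174 other nuclei, with medians of 2267 and 1734 CPM. Right, share of gated nuclei in each of the 6 clusters with 95% binomial intervals and a dashed line at 10%, with the fifth cluster at 17.2%.

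Loci of other lineages were read in the same nuclei. Genes listed for MPs were close to 1 in sum (0.981, 0.949 to 1.02). *Hic1*, the lineage tracer, was at 126 against 127 CPM (0.994), *Id1* at 1.02, *Id2* at 0.956, *Id3* at 0.959, *Tcf7l2* at 1.02, *Snai1* at 0.880 and *Sox11* at 0.863. *Hmga2*, an early growth regulator, was at 1.12 (1.03 to 1.22), and *Osr1*, a factor of irregular connective tissue progenitors, was at 58.1 against 81.6 CPM (0.712, 0.596 to 0.842). With each OCR counted as open or closed *Osr1* was at 0.980 (0.799 to 1.19). Tenogenic genes were also near 1 (0.989, 0.920 to 1.06), with *Scx*, the tendon progenitor factor, at 1.05 (0.933 to 1.18), *Mkx* at 0.914, *Htra3* at 1.04 and *Fmod* at 1.06, and with *Thbs4* lowest at 0.880 (0.712 to 1.07). *Kera* (0.894) and *C1qtnf3* (1.04), which the study names as a marker of fascia, were below the count minimum, and *Tnmd* had no OCR that could be read. Fibrogenic genes summed to 0.926 (0.842 to 1.02), from *Pi16* at 0.601 (0.417 to 0.853) to *Postn* at 1.06, with *Fap* at 1.04. *Cd34* (1.03), *Dpt* (1.07), *Clec3b* (1.29) and *Mfap5* (0.711) were below the count minimum, and *Ly6a* could not be read. Dermal fibrogenic genes summed to 0.952 (0.906 to 0.998) and 3 of 10 were at 0.8-fold or less, against 6.95% of all genes, while 3 of 10 lay above 1. *Crabp1* was at 0.674 (0.483 to 0.899), *Rspo1* at 0.768, the WNT effector *Lef1* at 0.858 (0.749 to 0.980), *En1* at 0.771 (0.598 to 0.975), *Axin2* at 0.835 (0.718 to 0.982) and *Irx1* at 0.9005. Above 1 were *Irx2* at 1.11, *Lrig1* at 1.08 and *Nkd2* at 1.07, with intervals that included 1. *Col7a1* (1.146) was below the count minimum.

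Sums over joint genes and over bone and perichondrium genes had intervals that included 1. Joint genes were at 1.02 (0.948 to 1.098), with *Gdf5*, the interzone ligand gene, at 1.16 (0.919 to 1.48) and *Barx1* at 0.755 (0.545 to 1.02). Bone and perichondrium genes were at 0.998 (0.929 to 1.08), with the osteoblast factor gene *Sp7* highest at 1.23 (1.01 to 1.56), *Dkk3* at 1.02 and *Dlx5* lowest at 0.796 (0.593 to 1.04). *Sp7* lies on chromosome 15 with *Col2a1*, and the OCRs of chromosome 15 as a whole were at 1.105 (1.098 to 1.111). Sclerotome genes, in contrast, were at 0.860 (0.769 to 0.977), from *Foxc2* at 0.762 to *Pax9* at 0.90001, with *Pax1* at 0.842. Each of the 3 genes tested had an interval that included 1. No alternative was run for this list or for the list of dermal fibrogenic genes.

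Genes of limb position were lower in sum (0.917, 0.885 to 0.951), with 6 of 14 at 0.8-fold or less, against 6.95% of all genes. These calls were not independent, since 3 of the 6 were read through 1 OCR, which leaves 4 of 12 with that OCR counted once. *Hoxd10*, *Hoxd11* and *Hoxd12* also shared OCRs. The OCR shared by *Hoxa9*, *Hoxa10* and *Hoxa11* was at 175 CPM in gated and 219 CPM in other nuclei (0.796, 0.722 to 0.880). *Hoxd10* was the lowest of the 14 tested (0.755, 0.612 to 0.920), *Hoxd11* was at 0.796, and *Shox2*, a proximal limb factor, at 0.794 (0.657 to 0.943). *Lhx9* was at 0.983, and *Msx2* (0.938) was below the count minimum. The sum was not lower in every alternative. With other nuclei weighted to the depth and promoter share of gated nuclei the sum was 0.984 (0.948 to 1.02), in nuclei with 10000 or more counts it was 0.977 (0.943 to 1.01), and with each OCR counted as open or closed it was 1.02. It was 0.852 at promoter OCRs and 1.02 outside them, and 0.930 without the deepest 5% of nuclei. The shared *Hoxa* OCR was at 0.884 (0.8003 to 0.979) with weighting. In nuclei with 10000 or more counts it was at 0.976 (0.894 to 1.07). With each OCR counted as open or closed it was at 1.13 (0.976 to 1.30). The part of depth and promoter share in this difference was not tested separately.

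Lists for cells that the sort or tissue could also hold were read in both groups. Pericyte genes were at 1.13 (1.04 to 1.22) in sum, with *Cspg4* highest (97.2 against 64.9 CPM, 1.497, 1.31 to 1.72). Without *Cspg4*, left out after its value had been seen, the sum was 165 against 167 CPM (0.983, 0.888 to 1.09). With the score taken on thinned nuclei *Cspg4* was at 1.11 (0.969 to 1.252). *Notch3* (1.149) and *Kcnj8* (1.04) also lay above 1 and *Abcc9* (0.993) and *Rgs5* (0.926) below it, all with intervals that included 1, and *Acta2* was lowest at 0.694 (0.513 to 0.936). Perineural genes were at 0.957 in sum, from *Wnt6* (0.771) to *Slc2a1* (1.148), with *Cldn1* (0.803) below the count minimum. Myogenic genes were at 0.958, with *Pax7* at 0.938, *Pax3* at 0.947 and *Myh3* at 1.04, and *Myod1* (0.875) and *Myf5* (1.146) were below the count minimum. Endothelial genes were at 0.983, from *Tek* (0.875) to *Kdr* (1.05), with *Pecam1* at 1.04, *Sox17* at 0.889 and *Podxl* at 0.954. Epithelial genes were at 0.986, from *Esrp1* (0.734) to *Trp63* (1.165), with *Krt5* (1.48) and *Krt14* (1.32) below the count minimum. Blood genes were at 0.925, from *Tal1* (0.846) to *Spi1* (0.979), and cell cycle genes at 0.939 (0.8497 to 1.03), from *Mki67* (0.859) to *Birc5* (1.07), with *Ccnb1* at 0.944. Of these lists only that of pericytes had an interval of its sum that excluded 1, and without *Cspg4* it did not.

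Over all genes, 454 were at least 25% higher and 860 at 0.8-fold or less (6.95%), and 11 (0.0889%) were at 1.5-fold or more, among them *Wwp2* and *Col9a2*. The remaining 9, which the rule for named genes did not include, were *Pfkm* (1.73), *Tbc1d9b*, *Adcy6*, *Rbbp9*, *Myg1*, *Trpt1*, *Manba*, *Gng2* (1.53) and *Tuba1a* (1.51). *Pfkm*, *Adcy6*, *Tuba1a* and *Myg1* lie within 4325 kb of *Col2a1*, with *Pfkm* the nearest at 85.9 kb, where its OCRs within 100 kb were left out. After *Wwp2*, the highest ratios among genes with 200 or more expected fragments were *Ttc27* (1.39), *Gm49450* (1.35), *Acot11* (1.33), *Map4k3* (1.32) and *Hdac7* (1.32). *Gm49450* and *Hdac7* lie 925 kb and 131 kb from *Col2a1*. The lowest were *Gm10800* (44.9 against 102 CPM, 0.440), the AP-1 gene *Jund* (0.732), the TGF-beta receptor gene *Tgfbr2* (0.734), *Mex3a* (0.736) and *Wnt5a*, the ligand gene of limb outgrowth (0.738, 0.629 to 0.863).

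Accessibility near the gate genes was higher in gated nuclei beyond the 100 kb that were left out. OCRs from 0.1 to 1 Mb away were at 1.09 (1.08 to 1.11) and those from 1 to 5 Mb at 1.05. Those over 5 Mb away on the same chromosome were at 1.019 (1.017 to 1.021), and those on chromosomes without a gate gene at 0.983. The ratio differed between gate genes, with 1.28 (1.24 to 1.31) around *Col2a1*, 1.23 (1.16 to 1.30) around *Col9a1*, 1.11 around *Cnmd* and 1.095 (1.07 to 1.14) around *Col9a3*. Around *Matn1*, *Chad*, *Acan* and *Snorc* it was between 1.01 and 1.02. With all OCRs within 1 Mb of a gate gene left out, the held-out cartilage genes were at 1.09 and the E16.5 cartilage regions at 1.64. OCRs farther away on the same chromosomes stayed in these values.

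The gate separated cartilage loci less at E12.5 than in the later libraries. With all nuclei thinned to 2500 fragments, the summed ratio over the held-out cartilage genes was 1.05 (1.01 to 1.09) at E12.5 for 464 gated nuclei. It was 1.27 (1.24 to 1.29) for 1474 gated nuclei of the E14.5 library, and 1.85 (1.82 to 1.88) for 1311 of the E16.5 library. Of the genes with 50 or more expected fragments after thinning, 1 of 17 was at least 25% higher at E12.5, against 3.89% of all genes. In the E14.5 library 13 of 29 were, against 2.36%, and in the E16.5 library 23 of 28, against 14.8%. The gene of the 17 that passed at E12.5 was *Wwp2*, at 1.46, 2.30 and 5.04 in order of stage. *Col9a2*, with 57 fragments in gated nuclei but fewer than 50 expected, was at 1.29 (0.959 to 1.71) at E12.5. *Sox9* was at 0.784 (0.584 to 1.03), 1.04 (0.911 to 1.18) and 1.61 (1.41 to 1.83). *Matn3* was at 1.02 at E12.5 and 4.06 at E16.5, and *Hapln1* at 0.957 and 3.03. The left-out *Col2a1* locus had ratios of 1.27 (1.05 to 1.53), 1.28 (1.16 to 1.41) and 4.21 (3.92 to 4.52). The left-out *Snorc* locus was at 1.33 (0.580 to 2.69), 1.0003 and 6.69. Differences between libraries hold within these 3 libraries only.

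**Figure D5:**
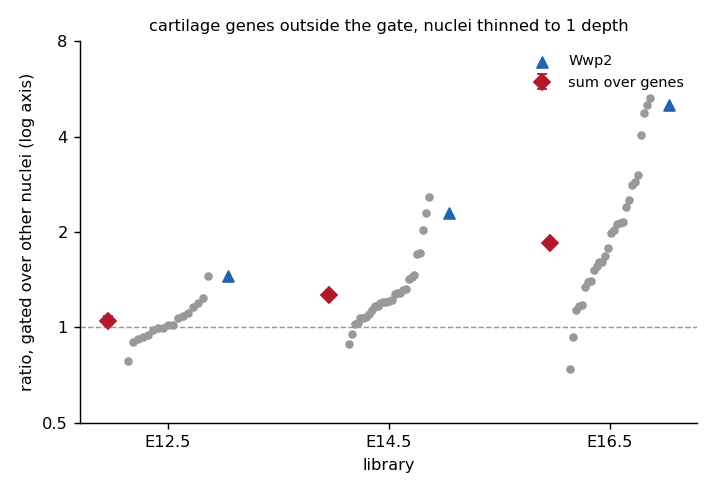
Ratio of CPM in gated over other nuclei (log axis) in each library after thinning, for the sum over held-out cartilage genes (diamonds, with 95% counting intervals), for the 17, 29 and 28 single genes with 50 or more expected fragments (grey points, in order of ratio) and for *Wwp2* (triangles). The sum goes from 1.05 in the first library to 1.27 in the second and 1.85 in the last.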

How the data were processed

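The deposited values were raw counts of transposase cuts, for each nucleus and peak, of single-cell ATAC-seq. The authors had aligned reads to mm10 and called barcodes and peaks in each library with Cell Ranger ATAC (1.1.0 in the processing notes and methods, 1.0.1 in the matrix headers of the E12.5 and E14.5 libraries and 1.2.0 in that of the E16.5 library). Coordinates and sequences are of GRCm38 (mm10), with genes from GENCODE and sequence from RefSeq. The E12.5 library held 87.0 × 1000000 counts. Counts were divided by each group's autosomal total outside the gate and its 100 kb flanks. Ratios carry exact conditional (Clopper-Pearson) 95% intervals on fragments, taken as cut sites divided by 2 and rounded up. They cover counting error only.

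Each stage was 1 library, so no test was made. Genes were summed over peaks in the gene body and 2000 bp upstream, and compared where 50 or more fragments were expected in gated nuclei (30 for single peaks). Promoters were 1000 bp upstream to 100 bp downstream of a start. Clusters were k-means (6 clusters, 10 starts) on 19 components of 116721 peaks. For the comparison of stages nuclei were thinned to 2500 fragments. Named genes were all gate and held-out genes, the highest and lowest tested gene of each other list with those the study names for it, and the 5 highest and 5 lowest genes outside the lists with 200 or more expected fragments. The gene that this rule names at 1 end of the position list, and the values of 1 further marker list, are not reported here. The members, lists and rules were chosen with earlier results of these data known. No doublet caller was run. Leaving out the deepest 5% of nuclei was an alternative, as were other limits, scalings, scores, peak classes and region numbers, and 3 were added after the data had been seen. The scripts were tested on simulated data. Python 3.11.15, numpy 2.4.6, scipy 1.17.1, scikit-learn 1.9.0 and pandas 2.3.3 were used.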

Additional observations from a re-analysis of the deposited data

How the results depend on the processing

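The summed ratio over held-out cartilage genes (1.09) was 1.14 in nuclei with 10000 or more counts, 1.04 with the score taken on thinned nuclei, 1.04 at promoter OCRs alone, 1.12 outside promoters and 1.06 without *Wwp2* and *Col9a2*. The ratio over E16.5 cartilage regions (1.64) was 1.88 and 1.48 with the highest 5% and 20% of nuclei, 1.71 with 10000 or more counts, 1.31 with the thinned score, 1.56 without the deepest 5%, 1.59 with weighting, 1.49 with OCRs counted as open or closed, 1.90 and 1.34 with 200 and 2000 regions, and 1.47 with regions from E14.5. Left-out loci (1.19) were at 1.297 with the highest 5% and 1.08 with 10000 or more counts. No alternative brought these ratios to 1 or below, but the intervals reached 1 for held-out genes at promoters (0.997 to 1.08) and for left-out loci with 10000 or more counts (0.995 to 1.17). Genes at least 25% higher (454 of 12373 tested) numbered 191 of 14903 with the highest 20%, 298 of 13958 with the thinned score, 227 of 3397 outside promoters, 1304 of 16881 with no minimum, 24 of 2121 with 200 or more expected fragments and 11 of 12373 at a fold of 1.5. Genes at 0.8-fold or less (860) numbered 271, 358, 157, 1931, 28 and 98 of the same numbers in the same order, and 400 of 11318 with OCRs counted as open or closed. The share of gated nuclei in the leading cluster (17.2%) was 9.97% and 31.8% with the highest 5% and 20%, where the share of all nuclei changes by construction, and 11.1% (9.41% to 12.9%) with 4 clusters. The stage ratios were 1.36 (E14.5) and 1.97 (E16.5) without thinning, and 1.72 (E16.5) at shared regions. At promoters alone *Papss2* was at 0.805, *Cspg4* at 0.695 and *Sox5* at 0.817. Position genes were at 1.02 outside promoters and at 1.02 with OCRs counted as open or closed, where *Hoxa10* was at 1.13. Pericyte genes were at 0.983 without *Cspg4*. The causes were not tested. The thinned score kept 250 (53.9%) of the gated nuclei, and a gate without *Col2a1* and *Col9a1* kept 223 (48.1%). No paired analysis was possible because each stage was 1 library. Of the 464 gated nuclei 306 held at most 4 gate fragments, which limits how firmly a single nucleus was placed.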
